A study of Mus musculus with 24 samples.

Results

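The blood-brain barrier is formed by the endothelial cells of brain capillaries, which are sealed to each other by tight junctions, take up nutrients through dedicated carriers, pump foreign compounds back into the blood and form few transport vesicles. Endothelial cells depend on VEGF signaling for growth and survival, and on contact with pericytes and astrocytes and on Wnt ligands for their barrier properties. Loss of the junction protein claudin-5 in the nucleus accumbens (NAc), a ventral striatal region that processes reward, has been linked to stress responses in mice. A set of 10 genes of this barrier was examined here in mRNA libraries of the NAc: the tight junction genes *Cldn5*, *Ocln* and *Tjp1*, the endothelial adhesion genes *Pecam1* and *Cdh5*, the VEGF receptor genes *Flt1* and *Kdr*, and the transporter genes *Slco1a4*, *Abcb1a* and *Mfsd2a*. The genes were chosen by name and not by a threshold on their counts, but with earlier results of these data known. All 10 were found among the 38293 genes of the count table by their Ensembl identifiers, and all 10 were among the 18593 genes that passed the filter on low counts.

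The mRNA came from 4 groups of C57BL/6J mice, 9 weeks old by the labels: unstressed males (NSM), males exposed to subchronic variable stress (SM), unstressed females (NSF) and females exposed to the same stress (SF). Subchronic variable stress (SCVS) was 6 days of alternating foot shock, tail suspension and restraint, and tissue was taken 24 h after the last stressor, with all females in estrus or proestrus. Each group had 3 libraries, every one made from 10 punches that were pooled over 5 mice, so that errors describe the spread between pools and not between animals. The libraries held 41076780 to 60867747 counted reads. Genes of striatal projection neurons, which define the labeled tissue, were abundant in every library, with 5503 to 6845 CPM (read counts scaled to the size of each library, with TMM factors) summed over 10 genes. Endothelial cells were read together with all other cells of the punch, and fewer endothelial cells cannot be told apart from less RNA per endothelial cell.

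The level of each gene was first compared per length, as CPM per kilobase of exon. *Tjp1*, which encodes the junction scaffold ZO-1 and is also made by cells other than endothelium, had the highest level, 18.1 CPM per kilobase (range over the 12 libraries 16.5 to 19.6). *Slco1a4*, a carrier of organic anions at the capillary wall, had 10.9 (9.37 to 12.8), *Cldn5* had 10.7 (6.87 to 14.0) and *Mfsd2a*, a lipid carrier that also limits vesicle transport in these cells, had 8.67 (7.92 to 10.3). The ranges of these last genes overlapped. Within libraries *Slco1a4* lay above *Mfsd2a* in all but SF replicate 1 (10.291 against 10.298). The place of *Cldn5* changed between libraries and was not resolved. Next came *Flt1* at 4.90 and *Abcb1a* at 4.82 CPM per kilobase, which did not differ beyond their spread, *Pecam1* at 3.66 and *Cdh5* at 2.67. *Ocln* at 1.67 and *Kdr* at 1.51 CPM per kilobase were lowest and overlapped each other. Lengths are those of all annotated exons together, which for *Flt1* span 11583 bases in 5 transcripts and for *Cldn5* 1414 bases in 1 transcript.

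**Figure D1:**
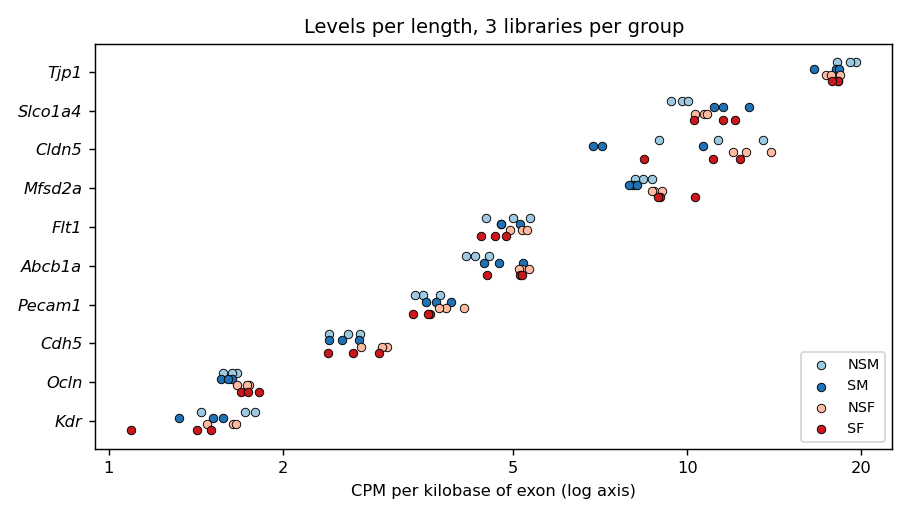
Level of each gene in CPM per kilobase of exon (log axis), with 1 point per library and color by group (3 libraries each). *Tjp1* lies above all other genes in every library, and *Cldn5* is spread most widely, from 6.87 to 14.0.

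Some genes varied far more than others between pools. *Cldn5* varied most, 2.03-fold from the lowest library (SM replicate 1) to the highest (NSF replicate 3), followed by *Kdr* with 1.63-fold. *Ocln* with 1.16-fold and *Tjp1* with 1.18-fold varied least, although *Ocln* had the fewest reads of the set, 262 to 443 per library against 386 to 1084 for *Cldn5*. The lowest library was SF replicate 1 for *Pecam1*, *Cdh5*, *Flt1* and *Kdr*, and this library was also the highest for *Mfsd2a*.

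**Figure D2:**
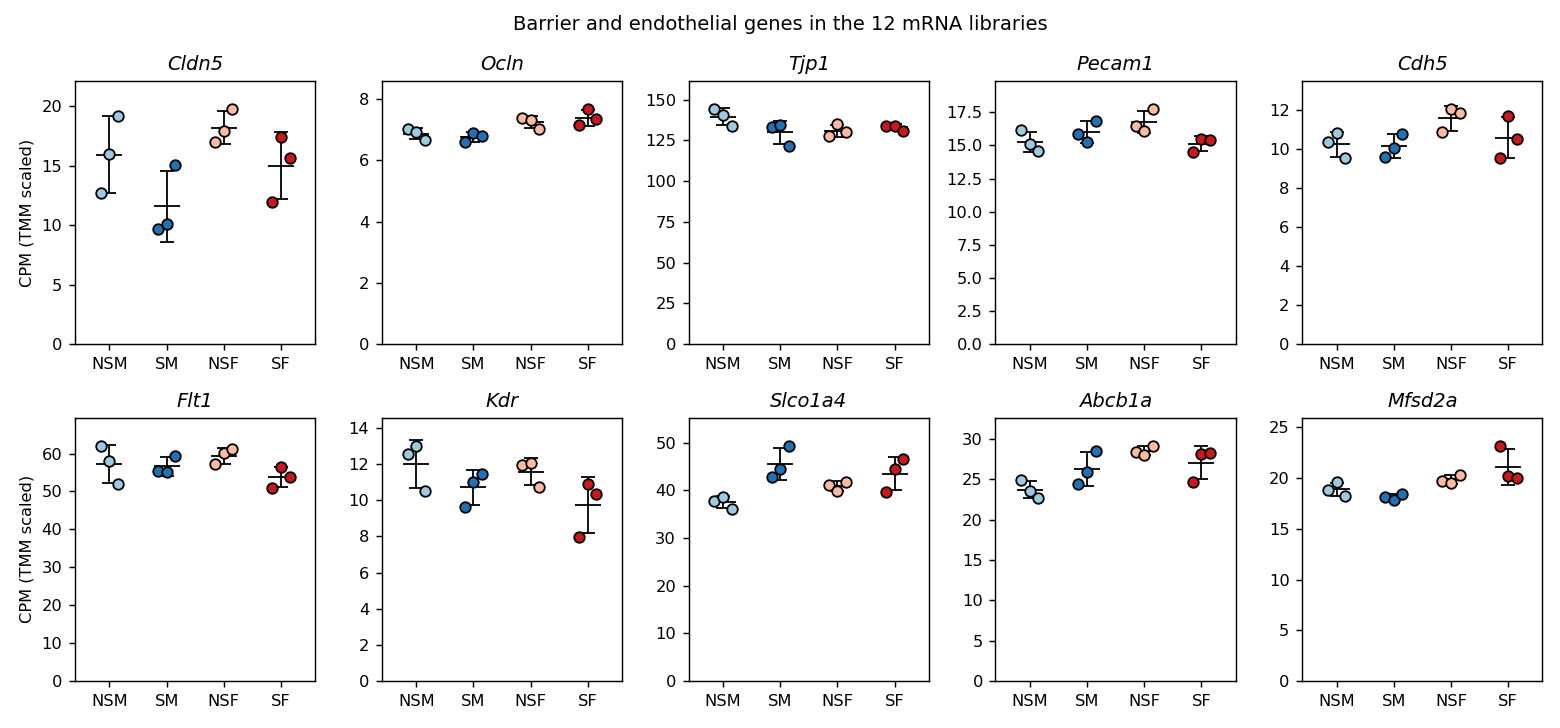
CPM of each gene in the 12 libraries, with points for libraries, and mean and SD for each group (n = 3). The NSM libraries are the 3 lowest for *Slco1a4*, and the SM libraries 1 and 2 are the lowest for *Cldn5*.

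To ask whether SCVS altered the junctions of the barrier in males, the tight junction genes were compared between SM and NSM. *Cldn5*, whose protein seals the space between brain endothelial cells, lies on chromosome 16 of NCBIM37 from 18776940 to 18778353. In NSM its CPM was 12.7, 15.95 and 19.1, and in SM 9.72, 10.1 and 15.04. Both of the lowest libraries of all 12 were from stressed males, but SM replicate 3 lay above NSM replicate 1, so the groups overlapped. The mean was 15.9 ± 3.24 CPM (SD, n = 3) in NSM and 11.6 ± 2.98 in SM, a log2 fold change of -0.45 (standard error, SE, 0.18, adjusted p = 0.18, limma). With that, *Cldn5* met the study's criteria for regulation, at least 1.3-fold with an unadjusted p under 0.05, but not an adjusted p under 0.05. It was the only one of the 10 genes to meet these criteria in males, where 6.44% of all tested genes did, and 4.08% in the direction of a decrease. The call was lost without NSM replicate 2 (log2 fold change -0.42), NSM replicate 3 (-0.30), SM replicate 1 (-0.35) or SM replicate 2 (-0.35).

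*Ocln*, which encodes the junction protein occludin, had 6.67 to 7.03 CPM in NSM and 6.59 to 6.89 in SM, a log2 fold change of -0.021 with a 95% interval of -0.17 to 0.13. For *Tjp1* the interval was -0.21 to 0.0019 (log2 fold change -0.10, adjusted p = 0.24, limma), and its group means were 139.5 ± 5.26 and 129.9 ± 7.04 CPM. With scaling by library size alone *Tjp1* had a log2 fold change of -0.15 and an adjusted p of 0.039 (limma). Changes of 1.3-fold, 0.379 on the log2 scale, thus lay outside the intervals of both genes, whereas the interval of *Cldn5* ran from -0.84 to -0.059.

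The smallest p value of the 10 genes in males was that of a transporter. *Slco1a4*, on chromosome 6 from 141753961 to 141804720, had 37.7, 38.7 and 36.1 CPM in NSM and 42.9, 44.5 and 49.3 CPM in SM. Every stressed library lay above every unstressed library, which was the case in this direction for 11.3% of all tested genes. *Slco1a4* rose from 37.5 ± 1.301 to 45.6 ± 3.35 CPM, a log2 fold change of 0.28 (SE 0.066, 1.21-fold, adjusted p = 0.037, limma). It was the only member with an adjusted p under 0.05, against 3.32% of all tested genes and 1.48% in this direction, and its change was below the 1.3-fold of the study's criteria. The adjusted p lay between 0.026 and 0.14 when each of the 12 libraries was left out in turn. It was over 0.05 without NSM replicate 2 (log2 fold change 0.32), NSM replicate 3 (0.26), SM replicate 1 (0.32), SM replicate 2 (0.30) or SM replicate 3 (0.23).

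*Abcb1a*, which encodes the efflux pump P-glycoprotein and lies on chromosome 5 from 8660077 to 8748575, had 24.9, 23.5 and 22.8 CPM in NSM and 24.4, 25.9 and 28.5 CPM in SM. The groups overlapped, and its log2 fold change of 0.15 did not pass the test (adjusted p = 0.24, limma). *Mfsd2a* had 18.3 to 19.6 CPM in NSM and 17.8 to 18.4 in SM (log2 fold change -0.061, 95% interval -0.20 to 0.074).

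The general endothelial genes did not pass the test in males. *Pecam1* (log2 fold change 0.064, 95% interval -0.076 to 0.20) and *Cdh5* (-0.010, -0.20 to 0.17) encode adhesion proteins of all endothelium, and the *Pecam1* gene overlaps an annotated U3 RNA on the other strand. *Flt1* (-0.015, -0.15 to 0.12) and *Kdr* (-0.16, -0.41 to 0.089) encode the VEGF receptors 1 and 2. Of the 10 genes, 3 were above 0 and 7 below, with a median log2 fold change of -0.018, beside -0.012 over all tested genes.

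**Figure D3:**
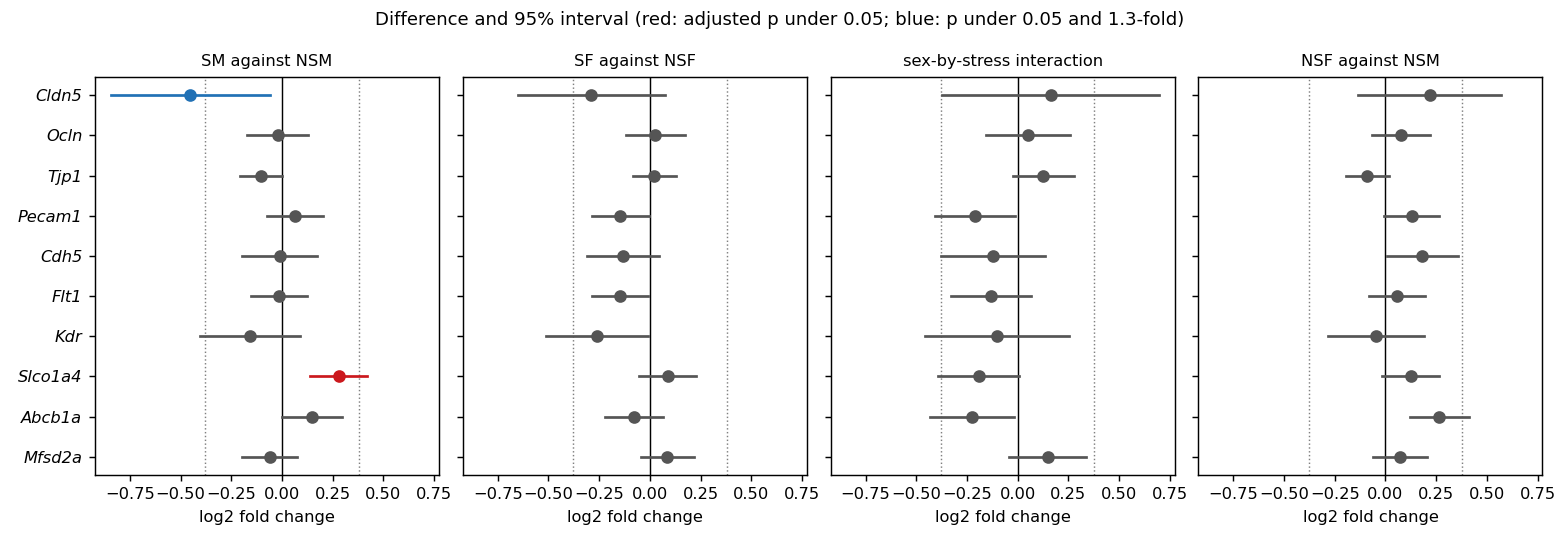
Log2 fold change and 95% interval of the 10 genes in SM against NSM, SF against NSF, the interaction of sex and stress, and NSF against NSM (3 libraries per group). Dotted lines mark 1.3-fold, and the interval of *Slco1a4* in males, 0.14 to 0.42, is the one drawn in red for an adjusted p under 0.05.

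Marker genes of other cells were read in the same libraries, beside 6.44% of all tested genes called in males and 11.3% higher in SM without overlap. Both shares count single genes, and no such share is given here for sums of genes. Red blood cell genes were higher in SM in 5 of 5 tested genes, each with an adjusted p under 0.05 (limma), and their summed level was 21.8 to 27.4 CPM in NSM and 38.5 to 47.2 CPM in SM. The sum of 13 pericyte and smooth muscle genes was 215 to 220 CPM in NSM and 224 to 249 CPM in SM, with 1 gene (*Tagln*, 0.39) called higher and 0 with an adjusted p under 0.05. The sum of 8 microglia genes was 309.5 to 335 CPM in NSM and 350.4 to 389 CPM in SM. Of these genes 2 were called higher and 2 had an adjusted p under 0.05 (limma). That of 6 oligodendrocyte genes was 4601 to 5145 CPM in NSM and 5528 to 5559 CPM in SM, with 0 called and 2 with an adjusted p under 0.05. Both sums were also higher in SM without overlap. Genes of cortical glutamatergic neurons, which are not residents of the NAc, summed to 7.13 to 22.9 CPM in NSM and 49.3 to 199.7 CPM in SM, with 2 of 7 called higher and 0 with an adjusted p under 0.05. Genes of the choroid plexus were below 0 in 7 of 7, with *Otx2* called lower (-0.57, adjusted p = 0.14, limma), and their sum reached 111 CPM in NSM replicate 1 against 33.8 to 45.5 CPM in the other 11 libraries. The part of these cells in the differences of *Cldn5* and *Slco1a4* was not tested. Meningeal fibroblast genes summed to 28.0 to 28.9 CPM in NSM and 24.6 to 29.2 CPM in SM, with 1 of 10 called, *Col1a2*, which fell by 0.48 (adjusted p = 0.037, limma). Astrocyte genes summed to 1326 to 1446 CPM in NSM and 1297 to 1422 CPM in SM, with 0 of 7 called.

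The sequence upstream of *Cldn5*, *Slco1a4* and *Abcb1a* is given because *Slco1a4* and *Cldn5* had the smallest p values of the 10 genes in males, and *Abcb1a* between the unstressed groups. Each window holds 250 bases before and 50 bases after a transcription start in RefSeq (GRCm38.p6, a later build than that of the counts), at chr16:18776597-18776896 on the plus strand, chr6:141856171-141856470 on the minus strand and chr5:8566841-8567140 on the plus strand. Capitals mark matches on either strand to AGGAAG, a short form of the site of ETS factors, and AACAAT, a short form of the site of SOX factors. Both families include regulators of endothelial genes.
Cldn5: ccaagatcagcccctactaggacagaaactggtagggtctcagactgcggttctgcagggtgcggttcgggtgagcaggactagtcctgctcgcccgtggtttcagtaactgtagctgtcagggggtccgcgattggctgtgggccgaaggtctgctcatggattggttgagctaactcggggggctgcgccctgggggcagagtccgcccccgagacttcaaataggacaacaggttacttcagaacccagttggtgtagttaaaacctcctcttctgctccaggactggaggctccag
Slco1a4: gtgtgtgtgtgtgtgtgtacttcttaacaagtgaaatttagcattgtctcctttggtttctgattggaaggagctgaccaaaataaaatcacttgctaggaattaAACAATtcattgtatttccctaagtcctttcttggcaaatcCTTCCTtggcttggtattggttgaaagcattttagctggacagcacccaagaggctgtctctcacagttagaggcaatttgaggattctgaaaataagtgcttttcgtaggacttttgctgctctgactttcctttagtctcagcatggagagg
Abcb1a: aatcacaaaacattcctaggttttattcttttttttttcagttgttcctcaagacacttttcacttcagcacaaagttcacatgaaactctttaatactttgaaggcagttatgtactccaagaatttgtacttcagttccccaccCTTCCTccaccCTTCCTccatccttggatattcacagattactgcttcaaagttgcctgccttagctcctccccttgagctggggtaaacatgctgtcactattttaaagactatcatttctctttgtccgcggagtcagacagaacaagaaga
The *Cldn5* window held no match to either motif, that of *Slco1a4* held 1 of each, and that of *Abcb1a* held 2 matches to the ETS letters. In 9 windows of 8 of the 10 genes (*Pecam1* and *Cdh5* were not in the table), 3 held the ETS letters, beside 35.4% of 32851 windows of all genes, and 1 held the SOX letters, beside 10.7%. The letters AGAACA, part of the site of the glucocorticoid receptor, were found in 1 of the 9 windows (*Abcb1a*) and in 19% of all windows, and TTTGAT, the letters of a TCF/LEF site of Wnt signaling, was found in 0 of 9 and in 11.9%. All motifs were searched on both strands, and AGAACA and AACAAT can share letters where they overlap. The GC content of the window was 58.3% for *Cldn5*, 40.7% for *Slco1a4* and 40.3% for *Abcb1a*.

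In females none of the 10 genes was regulated by the study's criteria, which 1.73% of all tested genes met, and none had an adjusted p under 0.05. No gene at all had an adjusted p under 0.05 in this comparison by limma or by edgeR's quasi-likelihood test, 3 had by DESeq2, and 786 had an unadjusted p under 0.05 by limma. Of the members 3 were among those: *Flt1*, *Pecam1* and *Kdr*, all lower in SF. *Flt1* had 57.1, 60.05 and 61.1 CPM in NSF and 51.0, 56.3 and 53.8 CPM in SF, a log2 fold change of -0.15 (SE 0.064, adjusted p = 0.95, limma). *Pecam1* had 16.5, 16.1 and 17.7 CPM in NSF and 14.5, 15.5 and 15.4 CPM in SF, a log2 fold change of -0.14 (adjusted p = 0.95, limma). In both genes every SF library lay below every NSF library, as in 6.41% of all tested genes. *Kdr* had 11.9, 12.1 and 10.7 CPM in NSF and 7.96, 10.9 and 10.4 CPM in SF (log2 fold change -0.26, adjusted p = 0.95, limma), with overlapping groups. SF replicate 1 was the lowest library for all 3, and without it the log2 fold changes were -0.11 for *Flt1*, -0.12 for *Pecam1* and -0.12 for *Kdr*.

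*Cldn5* had 17.0, 17.9 and 19.7 CPM in NSF and 11.9, 17.4 and 15.6 CPM in SF. Its log2 fold change of -0.29 (SE 0.17, adjusted p = 0.95, limma) had a 95% interval of -0.65 to 0.073, which included 0 as well as the estimate in males. Without SF replicate 2 it was -0.41 and met the study's criteria, and without SF replicate 1 it was -0.14. *Slco1a4* had 41.2, 39.8 and 41.7 CPM in NSF and 39.6, 44.4 and 46.5 CPM in SF, a log2 fold change of 0.087 with a 95% interval of -0.053 to 0.23. *Abcb1a* (-0.078), *Cdh5* (-0.13), *Ocln* (0.028), *Tjp1* (0.022) and *Mfsd2a* (0.086) did not pass either. In all, 6 of the 10 log2 fold changes were below 0, with a median of -0.11 beside -0.0039 over all tested genes.

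Red blood cell genes did not separate the female groups, with 0 of 5 called and summed levels of 29.8 to 38.9 CPM in NSF and 28.8 to 31.9 CPM in SF. Pericyte and smooth muscle genes summed to 230.3 to 238 CPM in NSF and 222 to 235 CPM in SF, with 0 of 13 called and 10 of 13 below 0. Cortical glutamatergic genes ranged from 22.8 to 368 CPM within NSF alone and from 44.8 to 116 CPM in SF. Above 0 were 8 of 8 microglia, 5 of 6 oligodendrocyte, 6 of 7 astrocyte and 5 of 7 choroid plexus genes. So were 7 of 10 striatal projection neuron, 2 of 10 meningeal fibroblast and 0 of 7 cortical glutamatergic genes. None of these was called, and 48.4% of all tested genes were above 0. The part of these cells in the values of *Flt1*, *Pecam1* and *Kdr* was not tested.

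To ask whether the response to SCVS differed between the sexes, the change in females was compared with the change in males by the interaction term. No member was regulated by the study's criteria, which 4.42% of all tested genes met, and none had an adjusted p under 0.05, which 0.0269% had. For *Cldn5* the interaction was 0.16 with a 95% interval of -0.37 to 0.70, so that its change was not shown to differ between males and females. For *Slco1a4* it was -0.19, with an interval of -0.39 to 0.0062 (adjusted p = 0.54, limma). *Abcb1a* (-0.22, adjusted p = 0.49, limma) and *Pecam1* (-0.21, adjusted p = 0.50, limma) had the smallest p values. In both, the stressed mean was above the unstressed mean in males and below it in females: *Abcb1a* had 23.7 ± 1.08 CPM in NSM, 26.3 ± 2.09 in SM, 28.5 ± 0.556 in NSF and 27.1 ± 2.05 in SF. For the same term 5 of 5 red blood cell genes were called (median -0.84), 6 of 7 cortical glutamatergic genes (median -3.59) and 2 of 13 pericyte and smooth muscle genes, *Myh11* and *Anpep*. The part of these cells in the interaction was not tested.

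The unstressed groups were compared to describe the sex difference at baseline. None of the 10 genes was regulated by the study's criteria, which 5.31% of all tested genes met, and none had an adjusted p under 0.05, which 0.285% had. In this comparison 8 of 10 genes were above 0, with a median log2 fold change of 0.10 beside 0.0033 over all tested genes. *Abcb1a* had the smallest p value. It had 22.8 to 24.9 CPM in NSM and 28.1 to 29.2 CPM in NSF, a log2 fold change of 0.27 (SE 0.068, 1.20-fold, adjusted p = 0.11, limma). The groups did not overlap for *Abcb1a*, *Cdh5*, *Slco1a4* and *Ocln*, each higher in NSF, as in 11% of all tested genes. *Cdh5* had 10.2 ± 0.638 CPM in NSM and 11.6 ± 0.627 CPM in NSF (log2 fold change 0.18, adjusted p = 0.31, limma). *Tjp1* (-0.090) and *Kdr* (-0.046) were below 0. Pericyte and smooth muscle genes were above 0 in 13 of 13 in the same comparison, with 0 called and a summed level of 215 to 220 CPM in NSM and 230.3 to 238 CPM in NSF, and meningeal fibroblast genes in 10 of 10, with *Col1a1* called and sums of 28.0 to 28.9 CPM and 31.4 to 35.8 CPM. Red blood cell genes were above 0 in 5 of 5, with 2 called and sums of 21.8 to 27.4 CPM in NSM and 29.8 to 38.9 CPM in NSF. Cortical glutamatergic genes were above 0 in 7 of 7, with 5 called and sums of 7.13 to 22.9 CPM and 22.8 to 368 CPM. Oligodendrocyte genes were above 0 in 6 of 6, with 0 called. Their sums were 4601 to 5145 CPM in NSM and 5250 to 5622 CPM in NSF. Choroid plexus genes were below 0 in 7 of 7, with 0 called. Above 0 were 6 of 8 microglia, 3 of 7 astrocyte and 4 of 10 striatal projection neuron genes. The part of these cells in the values was not tested.

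The NSM libraries entered both the comparison with SM and that with NSF. For *Slco1a4* the 3 NSM libraries were the lowest of all 12, so that SM and NSF both lay above them, by 0.28 and 0.12 on the log2 scale. The corresponding values were 0.15 and 0.27 for *Abcb1a*. For *Cldn5* they were -0.45 and 0.22, of which the difference between NSF and NSM did not pass (adjusted p = 0.57, limma).

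Other genes of the barrier were then counted, in 6 lists of junction genes, transporters, VEGF and angiopoietin signaling, Wnt signaling of the barrier, endothelial identity and endothelial activation. Of 94 listed genes 91 were tested, the exceptions being *Cldn3*, *Sele* and *Selp* with at most 14 reads in a library. In males 9 of the 91 (9.89%) met the study's criteria, 4 higher and 5 lower, and 4 had an adjusted p under 0.05. In females 2 (2.2%) met the criteria, both lower, and none had an adjusted p under 0.05. For the interaction 8 (8.79%) met them, 2 higher and 6 lower, and none had an adjusted p under 0.05. The smallest p among them was that of *Tfrc* (-0.47, adjusted p = 0.10, limma). In NSF against NSM 4 (4.4%) met the criteria, all higher, and 2 had an adjusted p under 0.05. The background in these comparisons was 6.44%, 1.73%, 4.42% and 5.31%, as above.

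Among 12 junction genes none met the criteria in either sex. The smallest p in males was that of *Cgnl1*, a cingulin-like protein of junctions (log2 fold change 0.24, adjusted p = 0.096, limma), and 9 of 12 were below 0 with a median of -0.081. Among 18 transporters 1 met the criteria in males, *Abcb1b*, the paralog of *Abcb1a*, with a log2 fold change of 0.38 (adjusted p = 0.15, limma). How reads that fit both paralogs were counted is not given in the sources used here. When the counts of the paralogs were added together, the calls on *Abcb1a* and *Slco1a4* did not change. Such a sum cannot restore reads that were counted for neither paralog. *Tfrc*, the transferrin receptor through which iron enters the brain and which neurons also make, had 84.6, 89.8 and 85.5 CPM in NSM and 102.7, 114 and 118 CPM in SM. It rose by 0.36 on the log2 scale (SE 0.058, adjusted p = 0.0074, limma), a change below 1.3-fold. It had 114, 102 and 109 CPM in NSF, higher than NSM by 0.32 (adjusted p = 0.038, limma), and 99.9, 98.5 and 104.7 CPM in SF. As with *Slco1a4*, the NSM libraries of *Tfrc* were the lowest of all. Its difference between NSF and NSM lost an adjusted p under 0.05 in 7 of the 12 fits that each left out a library (NSM replicates 1, 2 and 3, NSF replicates 1 and 3, SM replicate 2 and SF replicate 2), with log2 fold changes of 0.28 to 0.35 in those fits. It also lost it with scaling by library size (adjusted p = 0.083, limma), without the filter (0.054) and with only the libraries of the comparison (0.10). In males the adjusted p stayed between 0.0057 and 0.043.

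Among 16 genes of VEGF and angiopoietin signaling, the neuropilins, which serve as co-receptors for VEGF and as receptors for semaphorins, were lower in stressed males. *Nrp2* had 38.1, 33.7 and 43.1 CPM in NSM and 31.3, 21.2 and 26.8 CPM in SM, without overlap. It fell by 0.55 on the log2 scale (SE 0.14, adjusted p = 0.045, limma). *Nrp1* had 37.6 to 40.9 CPM in NSM and 31.3 to 33.7 CPM in SM and fell by 0.29 (SE 0.067, adjusted p = 0.035, limma). Both genes are also made by neurons. The adjusted p of *Nrp1* was over 0.05 without any 1 of the 6 libraries of the comparison (log2 fold changes -0.32 to -0.26). That of *Nrp2* was over 0.05 in 8 of 12 such fits (-0.63 to -0.40), those without NSM replicates 1, 2 or 3, SM replicates 2 or 3, or any SF library. With all 12 libraries, *Nrp2* lost an adjusted p under 0.05 without the filter (adjusted p = 0.060, limma) and with quality weights (log2 fold change -0.43, adjusted p = 0.065, limma). *Nrp2* also lost it with only the libraries of the comparison (adjusted p = 0.061, limma). *Nrp1* lost it without the filter (adjusted p = 0.052, limma). In females *Nrp1* had a log2 fold change of -0.16 (adjusted p = 0.95, limma), and *Angpt2*, a ligand of the Tie2 receptor, was the 1 gene of this list that met the criteria, at -0.52 (adjusted p = 0.95, limma).

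Among 17 genes of Wnt signaling at the barrier, *Wnt7b*, a ligand that neural cells present to brain endothelium, met the criteria in males (log2 fold change 0.42, adjusted p = 0.23, limma) and in females with the opposite sign (-0.45, adjusted p = 0.95, limma). Its interaction was -0.87 (adjusted p = 0.30, limma), and it also met the criteria in NSF against NSM (0.78, adjusted p = 0.094, limma). The cortical glutamatergic genes had medians of 2.68 in males, -1.03 in females and 3.13 in NSF against NSM, and their part in *Wnt7b* was not tested. *Ndp*, which encodes the Frizzled-4 ligand norrin, had the smallest p in males (0.32, adjusted p = 0.097, limma), and *Apcdd1*, a Wnt inhibitor, in females (-0.30, adjusted p = 0.95, limma).

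Of 23 genes of endothelial identity, 4 met the criteria in males, 2 in each direction. *Sox18*, a transcription factor of endothelial cells, had 2.28, 2.54 and 2.58 CPM in NSM and 1.41, 1.32 and 1.77 CPM in SM. It fell by 0.72 on the log2 scale (SE 0.16, adjusted p = 0.027, limma), and its adjusted p was over 0.05 without NSM replicates 2 or 3 or SM replicates 1 or 2 (log2 fold changes -0.68 to -0.62) and 0.0504 with only the libraries of the comparison. *Nos3*, the endothelial nitric oxide synthase, was also lower (-0.41, adjusted p = 0.14, limma). *Erg*, an ETS factor (0.39, adjusted p = 0.067, limma), and *Clec14a*, a surface lectin (0.41, adjusted p = 0.16, limma), were higher. Of the 23 genes, 12 were above 0 in males and 7 in females.

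Between the unstressed sexes 22 of these 23 genes were above 0, with a median log2 fold change of 0.16, beside 51% of all tested genes above 0. Of all 91 barrier genes 66 were above 0, among them 8 of 12 junction genes, 12 of 18 transporters, 11 of 16 VEGF and angiopoietin genes, 12 of 17 Wnt genes and 1 of 5 activation genes. The pericyte, meningeal fibroblast, oligodendrocyte, red blood cell and cortical glutamatergic lists given above for this comparison were also above 0 throughout. The von Willebrand factor gene *Vwf* had 13.6, 11.1 and 9.94 CPM in NSM and 17.8, 18.8 and 15.95 CPM in NSF, a log2 fold change of 0.61 (SE 0.11, adjusted p = 0.046, limma). *Sox17* (0.54, adjusted p = 0.15, limma) also met the criteria. The adjusted p of *Vwf* was over 0.05 in 8 of 12 fits that each left out a library (log2 fold changes 0.50 to 0.67), those without NSM replicates 2 or 3, SM replicates 1 or 2, NSF replicates 1 or 3, or SF replicates 2 or 3. With all 12 libraries it was also over 0.05 with scaling by library size (0.075), quantile normalization (0.051), no filter (0.067) and a stricter filter (0.051). With only the libraries of the comparison it was 0.11 (limma). Separate replicate blocks gave a log2 fold change of 0.44 (adjusted p = 0.27, limma). That fit compares the fitted levels of replicate 1 in each sex and not the group means, so it does not test the sex difference. Of 5 tested genes of endothelial activation, *Icam1* (-0.64, adjusted p = 0.16, limma) and *Lcn2* (-2.31, adjusted p = 0.19, limma) met the criteria in males, both lower in SM. For *Icam1* the groups overlapped, with 2.12, 1.28 and 1.24 CPM in NSM and 0.730, 0.872 and 1.40 CPM in SM. *Lcn2*, a secreted lipocalin, had few reads, with 0.106 to 1.34 CPM in NSM, 0.0755 to 0.111 CPM in SM, 0.149 to 0.379 CPM in NSF and 0.0212 to 0.0874 CPM in SF. In females it had a log2 fold change of -2.11 (adjusted p = 0.95, limma) and did not meet the criteria, but met them under edgeR, DESeq2, both replicate blocks and with only the libraries of the comparison (-2.23 to -1.90).

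**Figure D4:**
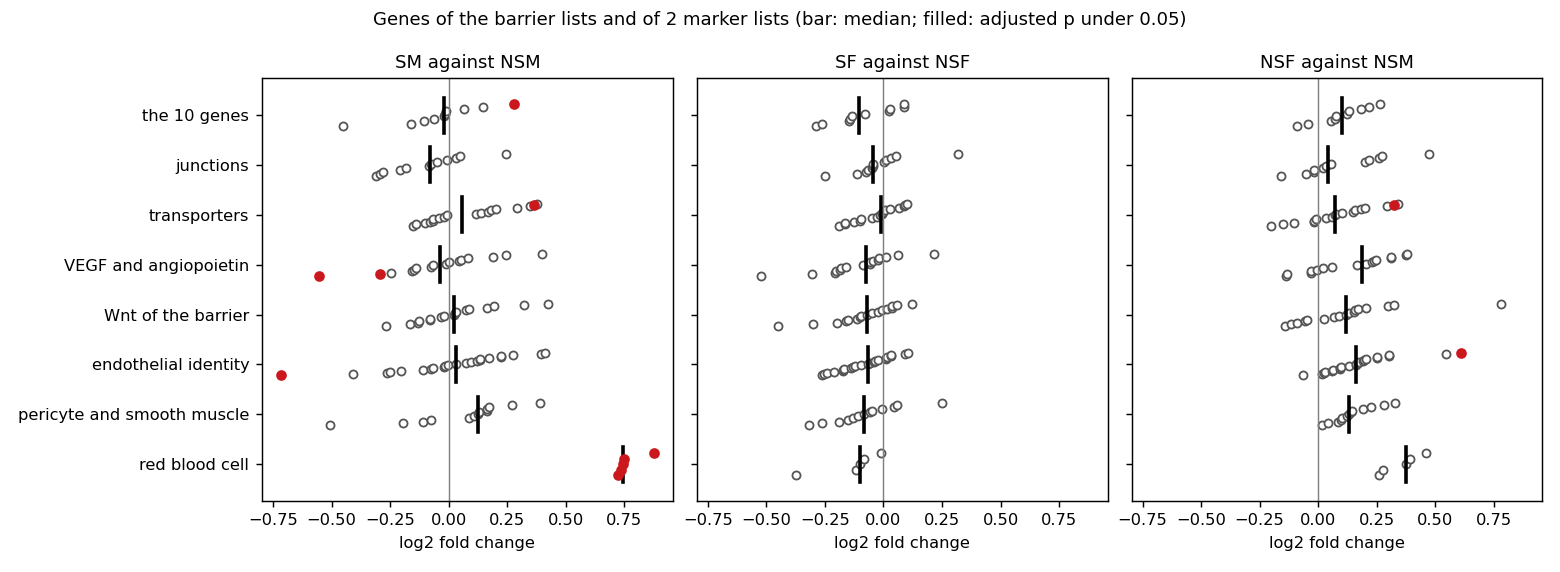
Log2 fold change of every tested gene of 5 barrier lists, of the 10 genes and of 2 marker lists (3 libraries per group). Bars are medians and filled points have an adjusted p under 0.05. In males the median of the 10 genes is -0.018 and that of the red blood cell genes 0.74.

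Finally, it was described which of the 10 genes varied together from pool to pool. The mean of each group was subtracted from log2 CPM, and each gene was correlated over the 12 libraries with the mean of the other 9. These libraries share the pool and its depth between genes, and the coefficients are a description. Pearson's r was highest for *Abcb1a* (0.89, Spearman's rho 0.83), *Cdh5* (0.88, rho 0.87) and *Slco1a4* (0.86, rho 0.90). It was 0.71 for *Kdr*, 0.69 for *Flt1*, 0.61 for *Pecam1* and 0.54 for *Ocln*. *Cldn5* was weakly related to the rest (0.32), and *Tjp1* (-0.38) and *Mfsd2a* (-0.45) had negative coefficients. When the libraries farthest from the median, SF replicate 1 and SM replicate 3, were left out, r was 0.84 for *Cdh5*, 0.77 for *Abcb1a* and 0.71 for *Slco1a4*, but -0.092 for *Cldn5*, -0.038 for *Tjp1* and -0.16 for *Mfsd2a*, so that the coefficients of these last genes rested on those libraries. Of the 45 pairs 33 were positive, with a median of 0.36. The transporters *Slco1a4* and *Abcb1a*, whose upstream windows are printed above, formed the pair with the highest value, 0.92, and *Cldn5* and *Tjp1* that with the lowest, -0.75.

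**Figure D5:**
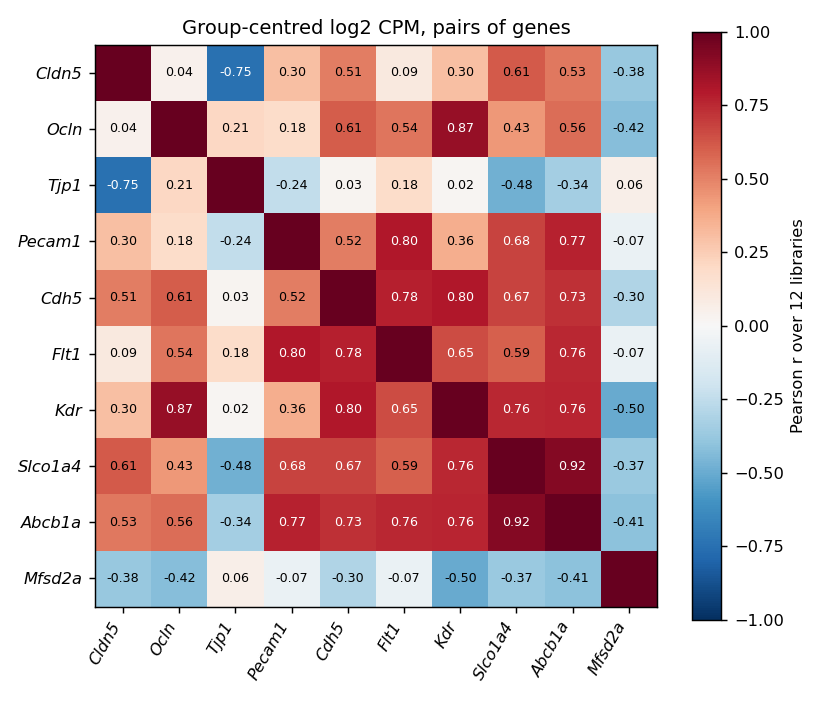
Pearson's r of group-centered log2 CPM for each pair of the 10 genes over 12 libraries. Pairs among *Slco1a4*, *Abcb1a*, *Cdh5*, *Kdr*, *Flt1* and *Pecam1* have values from 0.36 to 0.92, and *Tjp1* and *Mfsd2a* have mostly low or negative values.

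Among 17564 other genes with a mean of at least 10 reads, *Thsd1*, a thrombospondin-domain gene, followed the mean of the 10 genes most closely (r = 0.94 over 12 libraries). It was followed by the unnamed ENSMUSG00000096943 (0.93), *C130074G19Rik* (0.91), *Sh3bgr* (0.90) and *Tmem106c* (0.89). As the highest of 17564 coefficients over 12 libraries, these values are raised by the selection. Mean levels were low for *Sh3bgr* (0.586 CPM) and ENSMUSG00000096943 (1.38 CPM). Of the 50 highest genes 2 were in the barrier lists, *Abcc4* and *Eltd1*, and 0 in the pericyte and smooth muscle list. The mean of the 13 pericyte and smooth muscle genes had an r of 0.78 with the mean of the 10 genes, that of 10 meningeal fibroblast genes 0.56, that of 6 oligodendrocyte genes 0.52, that of 7 astrocyte genes 0.51, that of 7 cortical glutamatergic genes 0.21, that of 8 microglia genes 0.14, that of 7 choroid plexus genes -0.065, that of 5 red blood cell genes -0.34 and that of 10 striatal projection neuron genes -0.56.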

How the data were processed

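Per the labels and the paper's methods, the authors reverse transcribed poly(A) RNA of pooled NAc punches, sequenced it in paired reads, aligned the reads with TopHat2 to NCBIM37 and used HTSeq to count them per Ensembl gene. The authors deposited raw counts without normalization. The strand setting of the counting is not given in the sources used here. Libraries were grouped by their labels. Symbols were taken from GENCODE for NCBIM37, which matched 33789 of 38293 identifiers.

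As in the study, a gene was kept if over 5 reads were counted in 80% or more of any group's libraries. Counts were scaled by TMM factors (0.967 to 1.04) and fitted by voom and limma 3.58.1 (R 4.3.3, edgeR 4.0.16) with a mean for each group over all 12 libraries, and p values were adjusted by Benjamini-Hochberg over all 18593 tested genes. As in the study, a gene was called regulated at p under 0.05 and 1.3-fold. The fit was tested on simulated data. Changes are given on the log2 scale.

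The members, lists and tests were chosen with earlier results of these data known. Named from the lists were the genes with an adjusted p under 0.05 in a comparison, or otherwise that with the smallest p, and the 5 genes that followed the members most closely; other genes behind a count of 5 or fewer were named after their values were seen. Replicate numbers recur in all groups. Same-numbered libraries of NSM and SM had correlations of their deviations of 0.0058 to 0.35, so the numbers were not taken as pairs. Counts differed beyond sampling noise between all libraries of a group. The alternatives were DESeq2 1.42.0, edgeR's quasi-likelihood test, other scalings and filters, library weights, replicate blocks and fits without each library.

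Counts of small RNA precursors, likewise deposited raw by the authors, were read only for 2 precursors. Promoter and miRNA sequences came from RefSeq (GRCm38.p6).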

Additional observations from a re-analysis of the deposited data

Results flagged for a closer look

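For *Pecam1* and *Abcb1a* the response to SCVS differed between females and males at an unadjusted p under 0.05. The interaction was -0.21 for *Pecam1* (-0.2089, adjusted p = 0.50, limma) and -0.22 for *Abcb1a* (-0.2247, adjusted p = 0.49, limma), and neither passed the correction over all genes. For *Abcb1a* 2 of 3 SM libraries lay above all NSM libraries, and 1 of 3 SF libraries (replicate 1) lay well below all NSF libraries. Without SF replicate 1 the interaction was -0.16 for *Abcb1a* and -0.18 for *Pecam1*, and without SM replicate 3 it was -0.16 and -0.17.

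For *Mfsd2a* every SM library lay below the mean of NSM (18.9 CPM) and every SF library above the mean of NSF (19.9 CPM). The interaction of 0.15 (0.1473, adjusted p = 0.64, limma) did not pass, and without SF replicate 1, which had 23.2 CPM, it was 0.078.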

How the results depend on the processing

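With 3 pools per group, the SE of a log2 fold change in males ran from 0.049 for *Tjp1* to 0.18 for *Cldn5*, which sets the size of change that could be seen. In males *Cldn5* met the study's criteria under all 12 alternative fits, 1 of which used only the 6 libraries of the comparison. Its log2 fold changes there were -0.57 to -0.42, with adjusted p values of 0.024 to 0.23. *Cldn5* lost the criteria in 4 of 12 fits that each left out a library (-0.65 to -0.30 over these 12). *Slco1a4* had log2 fold changes of 0.22 to 0.30 over the 12 alternative fits, with adjusted p values of 0.0029 to 0.087. Its adjusted p rose over 0.05 with scaling by library size alone (0.2289, adjusted p = 0.087, limma), without the filter (0.2753, adjusted p = 0.061, limma) and with only the 6 libraries of the comparison (0.2842, adjusted p = 0.059, limma). Without the filter more genes were tested, and with 6 libraries fewer samples entered the fit. The cause of the higher adjusted p was not tested in any of these settings. Leaving out each library gave 0.226 to 0.321.

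In males the number of the 10 genes that met the criteria was 0 with an adjusted in place of the unadjusted p and 2 with no minimum fold. The number with an adjusted p under 0.05 was 0 without the filter, 0 with only the libraries of the comparison and 2 with library quality weights, *Slco1a4* and *Cldn5* (adjusted p = 0.033 and 0.035, limma). With no minimum fold the number was 3 in females, 2 for the interaction and 2 for NSF against NSM. By the ranks of members, the number over all genes lay between 1460 and 1938 for the interaction. For NSF against NSM it lay between 2659 and 3230, and for females it is given above. Under DESeq2 1 gene had an adjusted p under 0.05 in NSF against NSM, and with quality weights 1, *Abcb1a* in both. Leaving out each library gave 0 to 1 in males by either measure and 0 to 1 in females by the study's criteria. The share of all genes with an adjusted p under 0.05 in these other fits is not given here, so the counts have no background beside them.

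With the replicate number as a replicate block, shared by all groups or separate for each sex, 2 of the 10 genes had an adjusted p under 0.05 in males in place of 1, *Cldn5* being the one gained (adjusted p = 0.041 and 0.024, limma). The share of all genes with an adjusted p under 0.05 in these fits is not given here, so this gain has no background beside it. Correlations of deviations between same-numbered libraries were 0.0058 to 0.35 for NSM and SM and 0.088 to 0.13 for NSF and SF. With separate blocks, NSF against NSM compares the fitted levels of replicate 1 in each sex and not the group means. For *Flt1* that value was -0.0551, and it is not an estimate of the sex difference over all libraries.

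Values near 0 changed sign. In males *Cdh5* was 0.001097 with DESeq2's size factors in voom and 0.0223 with quantile normalization, and *Flt1* 0.00177 with quantile normalization. With quality weights the interaction of *Kdr* was 0.0696. Leaving out each library gave -0.0366 to 0.00584 for *Ocln*, -0.0520 to 0.0416 for *Cdh5* and -0.0778 to 0.0543 for *Flt1* in males, -0.196 to 0.0344 for the interaction of *Kdr*, and -0.0158 to 0.108 for *Flt1* and -0.141 to 0.0102 for *Kdr* in NSF against NSM. The cause of these changes was not tested. The median r of the 45 pairs was 0.51 with scaling by library size and 0.27 without SF replicate 1 and SM replicate 3.

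Of the 1198 genes called in males 439 were higher, 304 of 1278 with scaling by library size and 584 of 1224 with quantile normalization. In females 119 of 322 were higher, and 167 of 326 with quantile normalization, and in NSF against NSM 775 of 988 and 642 of 970. The precursors of miR-126 had too few counted reads to pass the filter, so the planned fits were not run.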

Other observations

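The miRNA most closely tied to endothelial cells is miR-126, which is encoded in an intron of the endothelial gene *Egfl7*. It was looked up in the 12 small RNA libraries made from the same groups. Its mature sequence in RefSeq, printed with the seed (bases 2 to 8) in capitals, is
mmu-miR-126a-3p: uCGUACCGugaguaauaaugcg
and its hairpin lies at chr2:26591357-26591429 on the plus strand of GRCm38.p6. The precursor mir-126a had 9 reads in all 12 libraries together, 0 to 2 in each, with at least 1 read in 7 libraries, out of 101553121 counted reads. The precursor mir-126b, whose hairpin lies on the minus strand at chr2:26591363-26591420 within the span of mir-126a, had 0 reads. The precursors overlap on opposite strands, and whether reads that lie in both were counted for neither is not given in the sources used here, so these counts are not a level of the miRNA. Neither passed the filter, and no comparison between groups was made.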
